A study of Mus musculus with 9 samples.

Results

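The genes of the lysosomal degradation machinery described here are the cathepsins, the subunits of the V-ATPase and a small set of lysosomal regulators in mouse granulosa cells, which line the ovarian follicle and support its oocyte. Members were chosen by a rule on name and gene type alone, written with earlier results of these data known. They are protein-coding genes called Cts plus a single letter, genes whose symbol starts with Atp6v, and Lamp1, Lamp2, Mcoln1, Tfe3, Tfeb and Mitf. This gave 46 of 25059 gene identifiers, with 18 cathepsins, 22 V-ATPase subunits, 3 membrane proteins and 3 transcription factors. The cells came from Kunming mice aged 21 days after birth. All groups had a 5 IU dose of pregnant mare serum gonadotropin (PMSG), a hormone that stimulates follicles to grow. The 0 h group was taken 48 h after PMSG, and the 1 h and 6 h groups were taken 1 h and 6 h after a further 5 IU of hCG (human chorionic gonadotropin), an LH receptor agonist used to induce ovulation. There were 3 RNA-seq libraries per group and 9 in all, and the comparisons ask how the members differ 1 h and 6 h after hCG. The labels give no genetic modification and do not say how many mice a library holds, nor that libraries came from separate mice, so each p-value rests on the spread among libraries, and that spread may be technical. Time of day, time after PMSG and time after hCG cannot be told apart, since each later group lacks a partner without hCG.

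Lysosomes break down proteins, lipids and glycans delivered by endocytosis and autophagy. Cathepsins are their main proteases and work best at acid pH. The V-ATPase is the rotary proton pump that acidifies the lumen: its cytosolic V1 sector burns ATP and its membrane V0 sector carries protons. Lamp1 and Lamp2 are abundant glycoproteins of the lysosomal membrane, and Mcoln1 is a calcium release channel there. Tfeb, Tfe3 and Mitf are related transcription factors known to bind E-boxes near the starts of lysosomal genes. In the preovulatory follicle of the mouse, cathepsin L is known as a protease whose transcript responds to the ovulatory stimulus in granulosa cells.

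Values are FPKM, a measure of level per transcript length and library size, summed over the rows of a gene. Libraries at 0 h summed to 493222 ± 1980 FPKM over all genes, those at 1 h to 551992 ± 22575 and those at 6 h to 526831 ± 12949 (SD, n = 3 each), and the depth in reads is unknown. Granulosa markers were high in every library, with all 11 passing the filter on low values, and their summed level lay at 10330 to 10890 FPKM at 0 h, 10900 to 15470 at 1 h and 5208 to 5542 at 6 h. Of the 17 macrophage markers, 11 passed and none was listed at 0 in all 9 libraries. They summed to 31.5 to 48.2 FPKM at 0 h, 30.7 to 55.8 at 1 h and 24.95 to 37.7 at 6 h, and 1 of them (Lyz2) was called lower at 6 h. None of the 11 neutrophil markers passed, Ly6g was listed at 0 in all 9 libraries, and the sum stayed between 0.849 and 2.74 FPKM. The 7 T and NK cell markers summed to 0.674 to 1.31 FPKM at 0 h, 1.38 to 2.05 at 1 h and 4.96 to 6.23 at 6 h, with 2 passing and none listed at 0 throughout. The 12 theca and stroma markers summed to 208.5 to 305.1 FPKM at 0 h, 267.1 to 406.4 at 1 h and 121.5 to 144.5 at 6 h, with 11 passing and none listed at 0 throughout. Of 10 oocyte markers 9 passed, and all 9 were called higher at 6 h against 0 h, with a sum of 42.7 to 67.9 FPKM at 0 h, 55.7 to 67.0 at 1 h and 76.8 to 115.0 at 6 h. Endothelial markers (7 of 9 passing) summed to 18.6 to 26.0 FPKM at 0 h, 21.6 to 24.4 at 1 h and 27.4 to 36.0 at 6 h, and 3 were called higher at 6 h against 0 h. Erythroid markers (4 of 6 passing) summed to 133.3 to 202.2 FPKM at 0 h, 89.7 to 203.8 at 1 h and 69.7 to 133.0 at 6 h, and 2 were called lower. No marker of the oocyte, endothelial and erythroid lists was listed at 0 throughout. The part of these cell types in the results below was not tested. In bulk libraries, fewer cells of a type and less RNA per cell cannot be told apart.

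Promoters are shown for some of the members that differ at 6 h and carry an E-box. RefSeq promoter windows (build GRCm38.p6, 250 bases before to 50 after the gene's start) were found for 36 of the 46 members. The E-box CACGTG, which reads the same on both strands, lay in the window of 10 of those 36 genes (27.8%), against 8.91% of 17491 protein-coding genes in the same table. These were Atp6v0b, Atp6v0d1, Atp6v0e, Atp6v1a, Ctsa, Ctsd, Ctsf, Ctsl, Lamp1 and Mcoln1. The longer form TCACGTGA, which contains the E-box, lay in 6 of 36 (16.7%) against 1.41%. The consensus GTCACGTGAC, which contains both, lay in 0 of 36 and in 0.469% of protein-coding genes. The windows below are the 4 that hold TCACGTGA in genes called different at 6 h, and that of Lamp1, which holds 4 E-boxes. They are printed 5′ to 3′ on the strand of the gene, with E-boxes in capitals. Ctsa, with a second window that holds none, is at chr2:164833523-164833822 on the plus strand. Ctsd is at chr7:142387778-142388077 on the minus strand and Atp6v1a at chr16:44139210-44139509 on the minus strand. Mcoln1 is at chr8:3500269-3500568 and Lamp1 at chr8:13158911-13159210, both on the plus strand.
Ctsa: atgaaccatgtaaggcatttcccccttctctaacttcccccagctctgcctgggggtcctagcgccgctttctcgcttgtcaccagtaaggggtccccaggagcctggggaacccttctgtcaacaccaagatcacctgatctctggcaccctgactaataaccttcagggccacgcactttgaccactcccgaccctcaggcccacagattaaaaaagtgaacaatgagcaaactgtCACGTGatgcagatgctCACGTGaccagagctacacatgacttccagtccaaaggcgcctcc
Ctsd: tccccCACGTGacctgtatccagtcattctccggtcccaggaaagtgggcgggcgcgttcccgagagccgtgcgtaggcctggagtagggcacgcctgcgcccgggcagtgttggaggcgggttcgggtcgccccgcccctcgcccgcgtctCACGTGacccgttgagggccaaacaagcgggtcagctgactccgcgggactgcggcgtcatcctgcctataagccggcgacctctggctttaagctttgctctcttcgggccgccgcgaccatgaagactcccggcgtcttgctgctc
Atp6v1a: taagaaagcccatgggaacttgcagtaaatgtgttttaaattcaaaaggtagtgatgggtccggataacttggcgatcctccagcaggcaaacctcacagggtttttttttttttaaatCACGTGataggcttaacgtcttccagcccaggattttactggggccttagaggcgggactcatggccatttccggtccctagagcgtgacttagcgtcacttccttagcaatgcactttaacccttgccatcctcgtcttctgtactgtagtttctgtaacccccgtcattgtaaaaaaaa
Mcoln1: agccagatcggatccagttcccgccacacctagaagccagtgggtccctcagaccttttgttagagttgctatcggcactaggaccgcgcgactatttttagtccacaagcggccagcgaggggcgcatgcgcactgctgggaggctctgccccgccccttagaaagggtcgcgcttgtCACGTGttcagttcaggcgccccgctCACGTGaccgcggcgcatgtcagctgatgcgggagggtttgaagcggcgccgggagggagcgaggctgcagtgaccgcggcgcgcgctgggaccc
Lamp1: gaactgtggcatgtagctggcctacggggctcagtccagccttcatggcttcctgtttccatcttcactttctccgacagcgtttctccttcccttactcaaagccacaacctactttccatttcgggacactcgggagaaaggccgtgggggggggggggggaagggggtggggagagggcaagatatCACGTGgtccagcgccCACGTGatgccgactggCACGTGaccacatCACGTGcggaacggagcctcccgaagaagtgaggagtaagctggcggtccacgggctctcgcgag
The E-boxes of Lamp1 begin 61, 45, 28 and 15 bases before the start and those of Mcoln1 71 and 45 bases before it. Of the 10 genes with an E-box, 2 were called higher, 5 lower and 3 neither at 6 h against 0 h. Of the 26 without one, 3 were called higher, 5 lower and 8 neither, and 10 were not tested. Members with no window found are outside this split. Of them, Atp6v0a2, Atp6v1c1, Atp6v1g1 and Atp6v1h were called higher, Ctsh was called lower, and Atp6v1b2 and Ctsb neither. Atp6v0d2, Ctse and Ctsw also had no window and were not tested. Over all genes tested, 28.8% were called higher and 27.9% lower, and a link between E-boxes and calls was not tested. A match is a description of the sequence and no measure of binding.

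Of the 46 members, 33 reached 1 FPKM or more in at least 3 libraries and were tested. The 13 others were 6 genes listed at 0 in all 9 libraries (Ctsg, Ctsj, Ctsm, Ctsq, Ctsr and Atp6v1e2) and 7 that stayed at or below 0.829 FPKM (Ctse, Ctsw, Atp6v0a4, Atp6v0d2, Atp6v1b1, Atp6v1c2 and Atp6v1g3). An exact 0 in such a table may be a failed estimate. Ctsj, Ctsm, Ctsq and Ctsr belong to the rodent cathepsins known from placenta, Ctsg is a neutrophil protease, and Ctsw is known from T and NK cells. Ctsk passed through its 1 h and 6 h libraries alone, with 4 libraries at 1 FPKM or more. Ctsl was the most abundant member at every time, and the level plot shows that the 3 times separate for some genes and overlap for others.

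**Figure D1:**
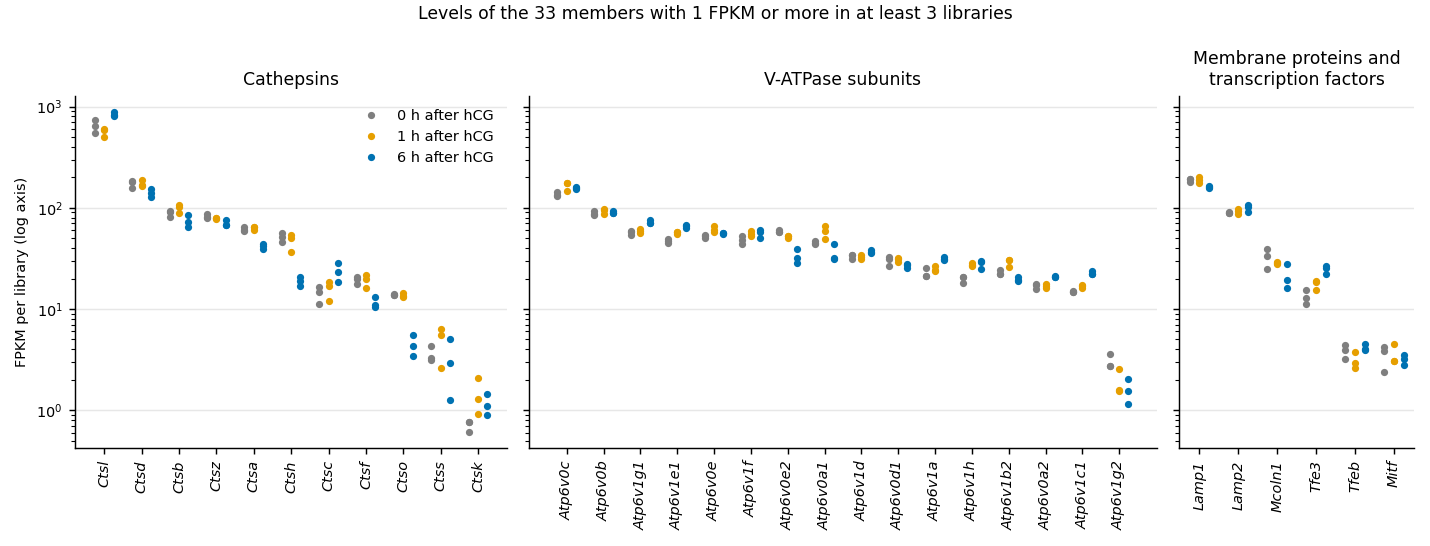
FPKM of the 33 tested members on a log axis, 1 point per library, in order of mean level within each panel (grey 0 h, orange 1 h, blue 6 h after hCG, n = 3 each). Ctsl stands highest, with 799 to 893 FPKM at 6 h and 551 to 735 at 0 h, while Ctso and Ctsh are lower in all 3 of the 6 h libraries.

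At 1 h after hCG none of the 11 tested cathepsins was called different by limma (1 had an unadjusted p below 0.05) and 5 V-ATPase subunits were higher than at 0 h. Calls rest on limma fitted to log2(FPKM + 1) of all 9 libraries, with a Benjamini-Hochberg adjusted p under 0.05 over the 14535 genes tested. Such log2 changes understate the change of low genes. By this rule 5 of 33 members (15.2%) were called at 1 h against 0 h, and 15.7% of all genes tested were called. All 5 were higher, which 9.68% of all genes were, and 0 were lower, against 5.98% of all genes. The share of members called was near the background. The members' median log2 change was 0.05, against −0.005 for all genes. Without adjustment 10 members had a p below 0.05. With FPKM scaled to the mean library sum, which moved the median of all genes to −0.144 and the calls over all genes to 1002 higher and 2634 lower, 1 member (Atp6v1h) was called higher and 5 lower (Atp6v0e2, Atp6v1d, Atp6v1g2, Ctsl and Ctsz). With quantile normalization, which called 1142 genes higher and 1252 lower, 2 members were higher (Atp6v1b2 and Atp6v1h) and 4 lower (Atp6v0e2, Ctsl, Ctsz and Lamp1).

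Atp6v1h, the regulatory H subunit of V1, had 20.9, 20.7 and 17.9 FPKM at 0 h, 28.6, 26.5 and 27.0 at 1 h, and 30.0, 29.2 and 24.7 at 6 h. The libraries at 1 h and at 6 h all lay above those at 0 h and overlapped each other. Its log2 change was 0.45 ± 0.09 (SE) at 1 h against 0 h, with a limma adjusted p of 0.00980. Atp6v1b2, the B subunit that shares the nucleotide sites with subunit A, had 22.1, 22.0 and 24.1 FPKM at 0 h, 30.2, 26.0 and 30.4 at 1 h, and 19.2, 20.9 and 18.7 at 6 h. It was highest in all 3 of the 1 h libraries and lowest in the 6 h libraries, and the times did not overlap. The log2 changes were 0.33 ± 0.08 at 1 h against 0 h (limma adjusted p = 0.0230) and −0.53 ± 0.08 at 6 h against 1 h (limma adjusted p = 0.000410). At 6 h against 0 h Atp6v1b2 was not called (−0.20 ± 0.08, limma adjusted p = 0.0549), and in 5 of the 16 alternatives described below it was called lower. Atp6v0c, the proton-carrying ring subunit of V0 and its most abundant transcript here, had 143, 131 and 133 FPKM at 0 h, 177, 145 and 175 at 1 h, and 157, 153 and 161 at 6 h. The 0 h libraries were the lowest, with replicate 2 at 1 h just above them. Its log2 change was 0.28 ± 0.08 at 1 h against 0 h (limma adjusted p = 0.0471) and 0.21 ± 0.08 at 6 h against 0 h, where the adjusted p was 0.0525. Atp6v1e1, a stalk subunit of V1, averaged 57.1 ± 1.38 FPKM at 1 h and 46.9 ± 2.34 at 0 h, and Atp6v0e averaged 61.5 ± 4.498 at 1 h and 52.1 ± 1.56 at 0 h (mean ± SD, n = 3), with log2 changes of 0.28 ± 0.06 and 0.23 ± 0.06 (limma adjusted p = 0.0138 and 0.0363).

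The calls at 1 h depended on single libraries, with 1 to 7 members called when each library was left out in turn. The Atp6v0c call ended when any 1 of 8 libraries was left out (all but replicate 2 at 1 h), with adjusted p from 0.0601 to 0.161. The Atp6v0e call ended without any 1 of the 0 h libraries, replicate 1 or 3 at 1 h, or replicate 1 or 2 at 6 h (0.0521 to 0.133). The Atp6v1b2 call ended without replicate 1 or 2 at 0 h or replicate 1 or 3 at 1 h (0.0757 to 0.0884), and the Atp6v1e1 call without replicate 2 or 3 at 0 h or replicate 1 at 1 h (0.05005 to 0.0559). The Atp6v1h call held without each of the 9 libraries and under both scalings, and ended where only its most abundant row was used (log2 change 0.28, adjusted p = 0.148).

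At 6 h after hCG most tested cathepsins were lower than at 0 h, Ctsl and Ctsc were higher, and 5 of the 9 tested V1 subunits were higher. At 6 h against 0 h 20 of 33 members (60.6%) were called, and 56.6% of all genes tested were called. Of these, 9 were higher, against 28.8% of all genes, and 11 were lower, against 27.9% of all genes. Without replicate 2 at 0 h 7 were lower, and with quantile normalization 8 were higher and 15 lower. The share of members called was near that of genes in general. The members' median log2 change was 0.02, against −0.004 for all genes. At 6 h against 1 h 19 members were called, 9 higher and 10 lower, where 53.5% of all genes were called, 26.7% higher and 26.9% lower. Both comparisons share the 6 h libraries.

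**Figure D2:**
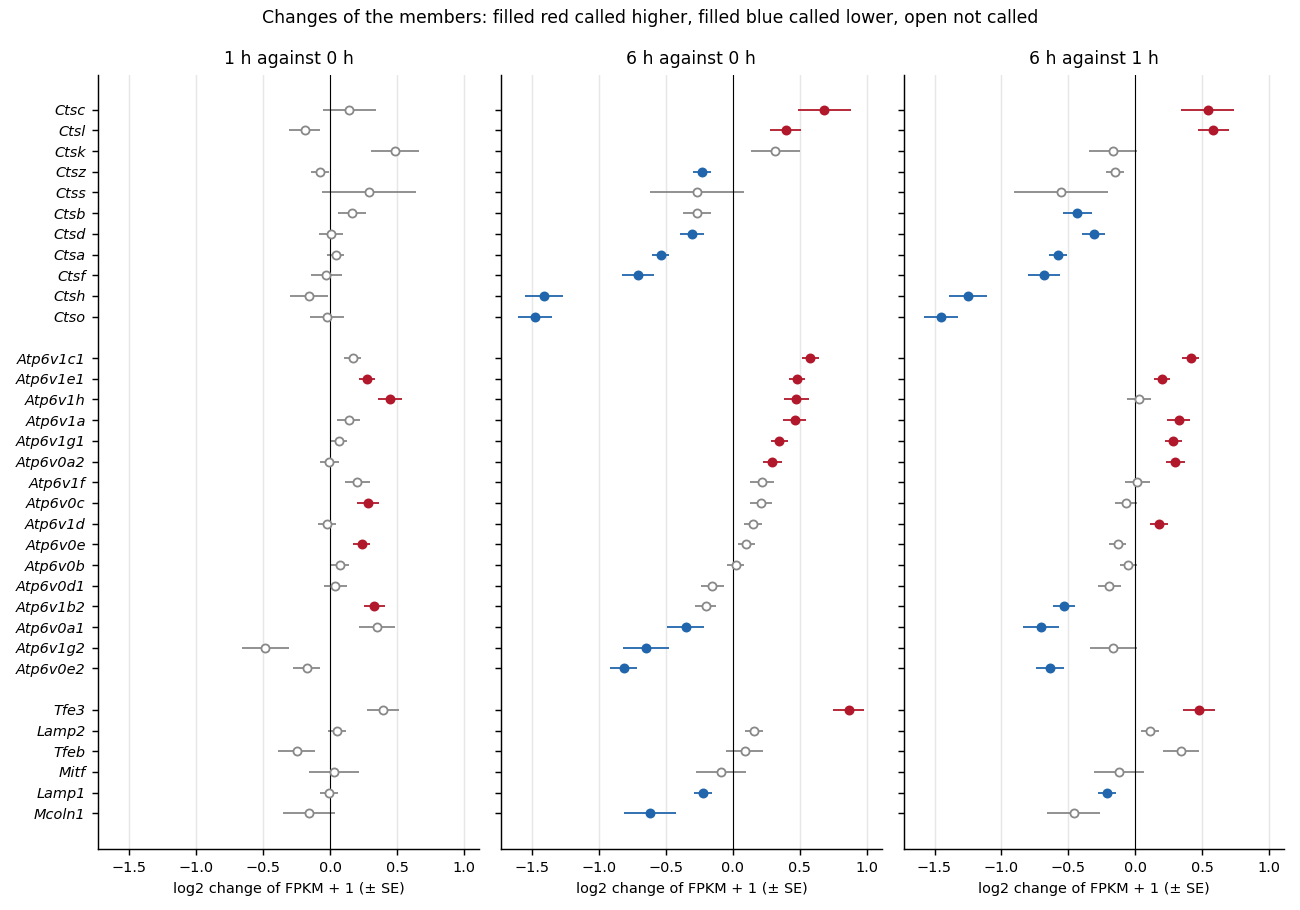
Log2 change of FPKM + 1 with its SE for the 33 tested members, in 1 panel each for 1 h against 0 h, 6 h against 0 h and 6 h against 1 h. Filled red points were called higher, filled blue lower and open grey neither, with the cathepsins at the top, V-ATPase subunits in the middle and regulators at the bottom. At 6 h against 0 h the lowest points are Ctso at −1.47 and Ctsh at −1.41 and the highest is Tfe3 at 0.87.

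Among the 11 tested cathepsins, 2 were called higher and 6 lower at 6 h against 0 h, with a median log2 change of −0.27. Over all genes tested, 28.8% were called higher and 27.9% lower. The summed granulosa markers, theca and stroma markers and erythroid markers were also lower at 6 h. Of 11 tested granulosa markers, 9 were called lower and 1 higher. Of 11 tested theca and stroma markers 4 were called lower, as were 2 of 4 tested erythroid markers, and in these lists 0 were called higher. The part of these cell types was not tested. Ctso, a little-studied cysteine protease (chr3:81932601-81956725, mm10, plus strand), had 13.7, 13.8 and 14.2 FPKM at 0 h, 14.5, 13.4 and 13.2 at 1 h, and 5.58, 3.47 and 4.27 at 6 h. All 3 of the 6 h libraries lay well below every other library, while 0 h and 1 h overlapped. Its mean was 3.14-fold lower at 6 h than at 0 h, with a log2 change of −1.47 ± 0.13 and a limma adjusted p of 8.17e-06. At 6 h against 1 h the log2 change was −1.45 ± 0.13 (limma adjusted p = 1.13e-05). Ctsh, a lysosomal aminopeptidase (chr9:90054152-90076089, mm10, plus strand), had 52.0, 56.9 and 46.4 FPKM at 0 h, 50.2, 36.3 and 53.6 at 1 h, and 20.7, 19.0 and 16.8 at 6 h. The 6 h libraries again lay below all others, and replicate 2 at 1 h was the lowest of the remaining libraries. Its mean was 2.75-fold lower at 6 h than at 0 h, with log2 changes of −1.41 ± 0.14 against 0 h and −1.25 ± 0.14 against 1 h (limma adjusted p = 2.38e-05 and 6.24e-05).

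Ctsa, a serine carboxypeptidase also known as the protective protein of β-galactosidase and neuraminidase, had 59.8, 64.2 and 59.2 FPKM at 0 h, 64.0, 64.4 and 60.1 at 1 h, and 44.1, 39.1 and 41.9 at 6 h. The 0 h and 1 h libraries overlapped, and the 6 h libraries lay below them with a log2 change of −0.54 ± 0.07 against 0 h (limma adjusted p = 8.63e-05). Ctsd, the main aspartic cathepsin, had 179, 182 and 158 FPKM at 0 h, 189, 168 and 165 at 1 h, and 153, 139 and 129 at 6 h. The 6 h and 0 h libraries did not overlap, although replicate 1 at 6 h lay close to replicate 3 at 0 h, and the log2 change was −0.30 ± 0.09 (limma adjusted p = 0.0137). This call ended without replicate 2 at 0 h (0.0537) or replicate 3 at 6 h (0.0504). Both Ctsa and Ctsd carry the E-boxes shown above. Ctsf, a cysteine endopeptidase, averaged 11.5 ± 1.37 FPKM at 6 h and 19.4 ± 1.63 at 0 h, with a log2 change of −0.71 ± 0.12 (limma adjusted p = 0.000632). Ctsz, a carboxypeptidase, averaged 70.3 ± 4.86 FPKM at 6 h and 82.6 ± 4.41 at 0 h, with a log2 change of −0.23 ± 0.07 (limma adjusted p = 0.0147) that was no longer called without replicate 2 at 0 h (0.0643) or at 6 h (0.0577). Ctsb, an endopeptidase that also removes dipeptides, averaged 88.7 ± 6.58 FPKM at 0 h, 99.7 ± 9.71 at 1 h and 73.7 ± 9.52 at 6 h (mean ± SD, n = 3). It was called lower at 6 h against 1 h (log2 change −0.43 ± 0.11, limma adjusted p = 0.00672) and was not called against 0 h (−0.27 ± 0.11, adjusted p = 0.0538).

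Ctsl and Ctsc went the other way. Ctsl (chr13:64359337-64370890, mm10, minus strand) had 551, 637 and 735 FPKM at 0 h, 598, 500.3 and 582 at 1 h, and 822, 893 and 799 at 6 h. The 6 h libraries were the highest, and the 0 h libraries spread widely and overlapped those at 1 h. The log2 change was 0.39 ± 0.12 at 6 h against 0 h (limma adjusted p = 0.0152) and 0.58 ± 0.12 at 6 h against 1 h (limma adjusted p = 0.00209). The call against 0 h ended without replicate 1 at 0 h (0.0598), without replicate 2 at 6 h (0.0582) and under quantile normalization (log2 change 0.22, adjusted p = 0.1001). As a share of summed cathepsin FPKM, Ctsl held 51.7%, 54.2% and 60.8% at 0 h, 52.4%, 50.5% and 53.0% at 1 h, and 65.9%, 69.99% and 69.1% at 6 h. All 6 h shares lay above the others. Summed over all cathepsins, Ctsl included, the level reached 1151 ± 74.0 FPKM at 0 h, 1077 ± 77.8 at 1 h and 1226 ± 62.8 at 6 h (mean ± SD, n = 3). Ctsc, or dipeptidyl peptidase I, which is known to activate granule serine proteases of immune cells, averaged 23.4 ± 5.10 FPKM at 6 h and 14.2 ± 2.67 at 0 h, with a log2 change of 0.68 ± 0.20 (limma adjusted p = 0.0142). This call ended without replicate 3 at 0 h (0.0549) or replicate 2 at 6 h (0.0590). Gzmb, such a granule protease and a marker of NK and T cells, averaged 3.22 ± 0.348 FPKM at 6 h and 0.0701 ± 0.0235 at 0 h. It is 1 of 7 listed T and NK cell markers, of which only 2 passed the filter. At 0 h it lay below 1 FPKM, so it passed through its later libraries alone, and its level is no support for the Ctsc result. The part of those cells in the Ctsc level was not tested. Ctss, known from antigen-presenting cells, averaged 3.57 ± 0.658 FPKM at 0 h, 4.81 ± 1.94 at 1 h and 3.08 ± 1.89 at 6 h. Ctsk, the osteoclast collagenase, averaged 0.710 ± 0.0826, 1.44 ± 0.596 and 1.14 ± 0.283 FPKM at 0, 1 and 6 h. Neither was called in any comparison.

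**Figure D3:**
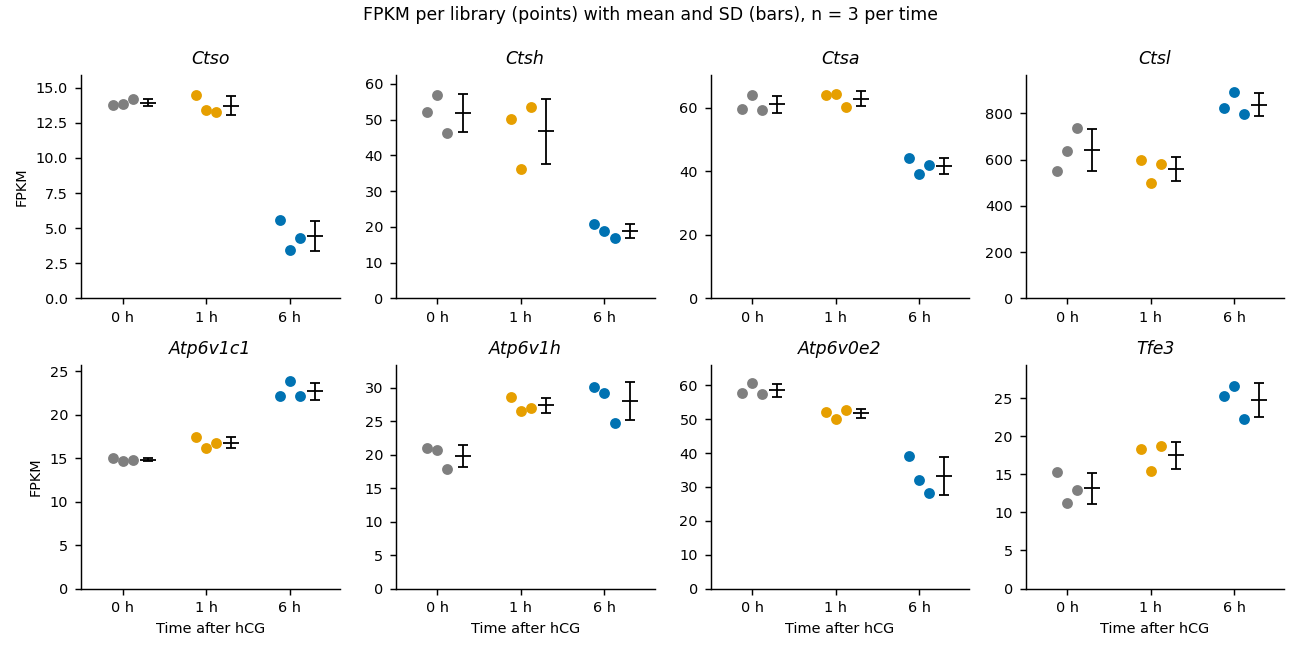
FPKM of 8 members by time after hCG on linear axes that start at 0, with 1 point per library and bars for the mean and SD (n = 3). Ctso, Ctsh, Ctsa and Atp6v0e2 are lowest at 6 h, Ctsl, Atp6v1c1 and Tfe3 are highest at 6 h, and Atp6v1h is lowest at 0 h.

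Of the 16 tested V-ATPase subunits, 6 were called higher and 3 lower at 6 h against 0 h, with a median log2 change of 0.18. The share called was 56.2%, near the 56.6% of all genes tested (28.8% higher and 27.9% lower). Under quantile normalization these 9 calls held and Atp6v0b, Atp6v0d1 and Atp6v1b2 were called lower as well. In V1, 5 of 9 tested subunits were higher and 1 lower (median 0.35), and summed V1 transcripts were 268 ± 12.03 FPKM at 0 h, 305 ± 10.7 at 1 h and 335 ± 14.6 at 6 h. In V0, 1 of 7 was higher and 2 lower (median 0.02), with sums of 427 ± 6.01 FPKM at 0 h, 479 ± 35.7 at 1 h and 420.2 ± 12.4 at 6 h (mean ± SD, n = 3). The difference between the sectors was not tested.

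Atp6v1g1, the G subunit of the V1 stalks and the most abundant V1 transcript, had 57.8, 58.4 and 53.7 FPKM at 0 h, 56.4, 59.4 and 62.0 at 1 h, and 70.5, 75.0 and 71.4 at 6 h. The 6 h libraries lay above the rest, which overlapped, and the log2 change was 0.35 ± 0.06 at 6 h against 0 h (limma adjusted p = 0.00101). Atp6v1c1, the C subunit that joins V1 to V0, averaged 14.8 ± 0.218 FPKM at 0 h, 16.8 ± 0.622 at 1 h and 22.7 ± 0.986 at 6 h (mean ± SD, n = 3). Its log2 change of 0.58 ± 0.06 at 6 h against 0 h was the largest rise among the tested subunits (limma adjusted p = 4.77e-05). Atp6v1a, the catalytic A subunit, whose E-box window is shown above, averaged 31.3 ± 1.32 FPKM at 6 h and 22.5 ± 2.57 at 0 h, with a log2 change of 0.46 ± 0.09 (limma adjusted p = 0.00120). Atp6v1e1 averaged 65.7 ± 2.52 FPKM at 6 h, with a log2 change of 0.48 ± 0.06 against 0 h (limma adjusted p = 0.000110). Atp6v1h remained above 0 h at 6 h by 0.47 ± 0.09 (limma adjusted p = 0.00150). In the files this gene has 5 rows, and its second row averaged 2.14, 5.32 and 6.54 FPKM at 0, 1 and 6 h while its most abundant row averaged 16.6, 20.2 and 19.4. With the most abundant row alone the 6 h call ended (log2 change 0.22, adjusted p = 0.141). Atp6v1d and Atp6v1f, of the central shaft, were not called against 0 h (0.15 ± 0.07 and 0.22 ± 0.09, limma adjusted p = 0.0743 and 0.0665), and Atp6v1d was called at 6 h against 1 h with an adjusted p of 0.0482. That call ended without any 1 of 8 libraries (all but replicate 3 at 1 h), with adjusted p from 0.0568 to 0.150.

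In V0, Atp6v0a1 and Atp6v0a2 encode alternative a subunits, which carry the proton path. Atp6v0a1 had 44.8, 46.5 and 44.1 FPKM at 0 h, 59.1, 49.3 and 66.4 at 1 h, and 43.7, 31.0 and 32.0 at 6 h. The 1 h libraries were the highest, and replicate 1 at 6 h reached almost to the 0 h libraries. The log2 change was −0.70 ± 0.14 at 6 h against 1 h (limma adjusted p = 0.00184) and −0.35 ± 0.14 at 6 h against 0 h (0.0494). The call against 0 h ended without any 1 of the 0 h libraries, replicate 1 at 1 h, or replicate 2 or 3 at 6 h (0.0644 to 0.170). Atp6v0a2 averaged 20.9 ± 0.401 FPKM at 6 h and 16.9 ± 1.10 at 0 h, with a log2 change of 0.29 ± 0.07 (limma adjusted p = 0.00549). Atp6v0e2, an alternative to the small e subunit Atp6v0e, averaged 58.5 ± 1.87 FPKM at 0 h, 51.7 ± 1.33 at 1 h and 33.1 ± 5.59 at 6 h, with a log2 change of −0.81 ± 0.10 at 6 h against 0 h (limma adjusted p = 0.000102). Without rescaling and with all 9 libraries and all rows, Atp6v0b and Atp6v0d1 were called in no comparison, at 89.99 ± 2.15 and 26.9 ± 1.38 FPKM at 6 h and 88.6 ± 3.44 and 30.1 ± 3.34 at 0 h. Without replicate 3 at 0 h, Atp6v0d1 was called lower at 6 h against 0 h and against 1 h (limma adjusted p = 0.0234 and 0.0372). The log2 change of Atp6v0b at 6 h against 0 h was 0.02, and under quantile normalization −0.14.

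The balance between alternative genes of a subunit is given as each gene's share, which was described and not tested. Atp6v0a2 made up 25.9%, 27.7% and 28.1% of the FPKM summed over the Atp6v0a genes at 0 h, 22.3%, 24.5% and 20.9% at 1 h, and 32.4%, 40.7% and 39.1% at 6 h. No share at 6 h overlapped those of the other times. Tcirg1, which encodes a further a subunit and is outside the naming rule, is not in this sum and averaged 11.8 ± 0.313 FPKM at 6 h and 11.3 ± 0.984 at 0 h. Atp6v0e2 made up 51.8%, 53.7% and 53.2% of the e subunit at 0 h, 43.9%, 46.3% and 46.9% at 1 h, and 41.6%, 36.4% and 33.1% at 6 h, with no overlap between times. Atp6v1g2, known as the neuronal G subunit, was low throughout at 1.57 ± 0.428 FPKM at 6 h and 3.01 ± 0.472 at 0 h (log2 change −0.65 ± 0.17, limma adjusted p = 0.00980). Its share of the G subunit averaged 5.05 ± 0.679% at 0 h, 3.07 ± 0.744% at 1 h and 2.12 ± 0.511% at 6 h (mean ± SD, n = 3). Subunits B, C and E came almost wholly from a single gene. Atp6v1b2 made up at least 97.1% of B and Atp6v1c1 at least 98.8% of C, and the second E gene, Atp6v1e2, was listed at 0. Of the V0 paralogues known from kidney and osteoclasts, Atp6v0a4 and Atp6v0d2 were low, at most 0.0658 and 0.829 FPKM, and Tcirg1 was not. In V1, Atp6v1b1, Atp6v1c2 and Atp6v1g3 reached at most 0.560, 0.203 and 0.0430 FPKM.

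**Figure D4:**
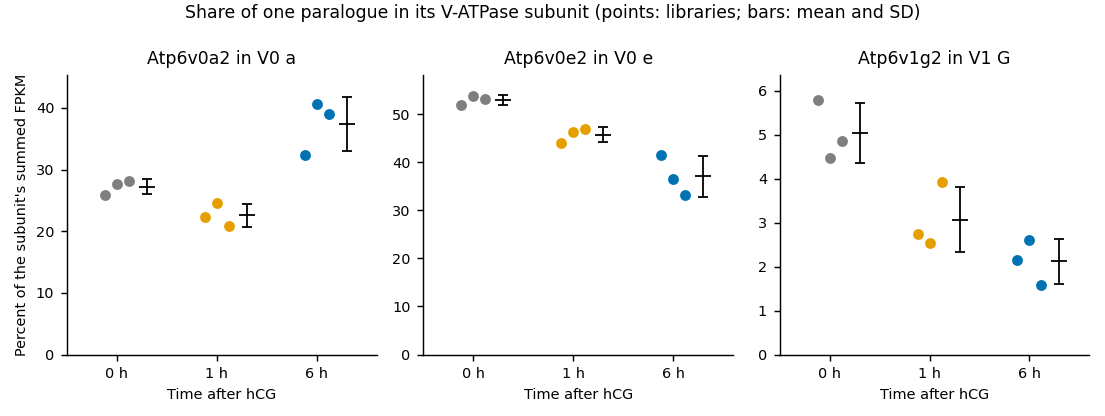
Share of Atp6v0a2, Atp6v0e2 and Atp6v1g2 in the FPKM summed over the member genes of their subunit, in percent on axes that start at 0, by time after hCG (points are libraries, bars the mean and SD, n = 3). Atp6v0a2 averages 27.2%, 22.6% and 37.4% at 0, 1 and 6 h, and Atp6v0e2 averages 37.0% at 6 h, against 52.9% at 0 h.

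The regulators showed a higher level of Tfe3 and lower levels of Lamp1 and Mcoln1 at 6 h. Tfe3 (chrX:7762560-7775202, mm10, plus strand) had 15.3, 11.3 and 12.9 FPKM at 0 h, 18.3, 15.5 and 18.8 at 1 h, and 25.3, 26.6 and 22.2 at 6 h. No time overlapped another. The log2 change was 0.87 ± 0.12 at 6 h against 0 h (limma adjusted p = 0.000185) and 0.47 ± 0.12 at 6 h against 1 h (0.00761), and at 1 h against 0 h it was 0.39 ± 0.12 with an adjusted p of 0.0517. The gene has 8 rows in the files, and the rise was not in the most abundant of them, which averaged 7.59, 5.46 and 8.26 FPKM at 0, 1 and 6 h. That row alone gave a log2 change of −0.44 at 1 h against 0 h (adjusted p = 0.216), 0.09 at 6 h against 0 h (adjusted p = 0.757) and 0.53 at 6 h against 1 h (adjusted p = 0.0665). The next 3 rows averaged 5.35, 4.31 and 5.32 FPKM at 6 h and 1.501, 1.99 and 0.829 at 0 h. The rows carry no transcript name. Tfeb had 3.22, 3.95 and 4.41 FPKM at 0 h, 3.74, 2.93 and 2.61 at 1 h, and 3.89, 4.55 and 4.01 at 6 h. Mitf had 2.37, 3.87 and 4.22 FPKM at 0 h, 3.08, 4.54 and 3.04 at 1 h, and 2.78, 3.202 and 3.47 at 6 h. Both overlapped between 6 h and 0 h and were called in no comparison, with log2 changes of 0.09 ± 0.14 and −0.09 ± 0.19 at 6 h against 0 h (limma adjusted p = 0.601 and 0.705). Per length, Tfe3 had the highest level of the 3 related factors in every library.

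Lamp1 had 193, 192 and 179.9 FPKM at 0 h, 201, 176 and 186 at 1 h, and 165, 159 and 161 at 6 h. The 6 h libraries were the lowest, with a log2 change of −0.22 ± 0.07 against 0 h (limma adjusted p = 0.0164), and the call ended without replicate 1 or 2 at 0 h or replicate 2 at 6 h (0.0543 to 0.0570). Lamp2 had 87.9, 90.4 and 89.5 FPKM at 0 h, 92.9, 96.8 and 87.6 at 1 h, and 105, 101.9 and 91.8 at 6 h. Its 6 h libraries lay above those at 0 h, and the log2 change of 0.16 ± 0.07 was not called (limma adjusted p = 0.0749). Mcoln1 had 39.1, 24.7 and 33.5 FPKM at 0 h, 28.4, 29.2 and 27.8 at 1 h, and 15.9, 19.2 and 27.8 at 6 h. Replicate 3 at 6 h lay above replicate 2 at 0 h, so the groups overlapped. The log2 change was −0.62 ± 0.20 at 6 h against 0 h (limma adjusted p = 0.0217), and the call ended without replicate 1 or 3 at 0 h or replicate 1 or 2 at 6 h (0.0613 to 0.0825). The more abundant of its rows had 9.99, 11.9 and 11.9 FPKM at 6 h, against 19.2, 18.4 and 20.7 at 0 h. The other row had 5.95, 7.32 and 15.9 FPKM at 6 h, against 19.9, 6.33 and 12.9 at 0 h, and overlapped between the times.

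Genes that act with the members were counted from lists written for this purpose with earlier results of these data known. The counts are therefore a description and no test of the lists. Of all genes tested, 28.8% were higher and 27.9% lower at 6 h against 0 h, with a median log2 change of −0.004. Of 43 genes listed as lysosomal hydrolases other than cathepsins, all tested, 8 were higher and 30 lower at 6 h against 0 h (median log2 change −0.61). This list also holds Psap, Gm2a, Npc2 and Grn, whose products are not hydrolases. Among those lower, Naglu and Sgsh, which take part in heparan sulphate breakdown, averaged 24.96 ± 1.36 and 3.33 ± 0.212 FPKM at 6 h and 80.4 ± 2.48 and 12.3 ± 0.991 at 0 h (log2 changes −1.65 and −1.61, limma adjusted p = 4.09e-07 and 1.35e-06). Of 11 genes listed for the sorting of hydrolases to the lysosome, 7 were lower and none was called higher by limma, adjusted or at an unadjusted p below 0.05 (median −0.42). Those lower include Gnptab and Gnptg, which make the mannose 6-phosphate tag. They also include Sumf1, known for activating sulphatases, and its relative Sumf2, neither of which is known for sorting. Igf2r, the mannose 6-phosphate receptor that also clears IGF2, averaged 27.7 ± 0.782 FPKM at 6 h and 52.7 ± 1.03 at 0 h (log2 change −0.90, limma adjusted p = 3.41e-05). Gga2, a sorting adaptor, and Nagpa, the enzyme that uncovers the mannose 6-phosphate tag, had log2 changes of −0.84 and −0.70 (limma adjusted p = 0.000316 and 0.00132). Of 23 tested lysosomal membrane proteins, 5 were higher and 10 lower (median −0.16). The tetraspanin Cd63 averaged 232 ± 5.23 FPKM at 6 h and 91.3 ± 14.3 at 0 h (log2 change 1.35), while the ion channel gene Tmem175 and Scarb2, the receptor that carries glucocerebrosidase, fell with log2 changes of −1.28 and −0.88 (limma adjusted p = 5.17e-06, 2.16e-06 and 3.13e-05 for the 3 genes).

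Of 13 V-ATPase partners and assembly factors, 2 were higher and 5 lower at 6 h against 0 h (median −0.04). Ncoa7, whose product binds the V-ATPase, averaged 17.6 ± 2.82 FPKM at 0 h, 40.8 ± 4.07 at 1 h and 136 ± 31.9 at 6 h (log2 change 2.86 at 6 h against 0 h, limma adjusted p = 8.07e-07). Dmxl2, a subunit of the rabconnectin complex that assembles the pump, and Tmem9 fell, with log2 changes of −0.997 and −0.75 (limma adjusted p = 4.59e-05 and 1.60e-05). Of 22 genes of lysosomal nutrient sensing, 7 were higher and 6 lower (median 0.02). Rragd, a Rag GTPase, averaged 26.8 ± 2.82 FPKM at 6 h and 2.90 ± 0.948 at 0 h (log2 change 2.86). Its relative Rragb averaged 1.25 ± 0.687 and 4.85 ± 0.314 FPKM at 6 h and 0 h (log2 change −1.42), and Lamtor3 of the Ragulator complex had a log2 change of 0.89 (limma adjusted p = 6.19e-07, 0.000353 and 9.24e-05 for the 3 genes). Of 38 autophagy genes, 17 were higher and 7 lower (median 0.16). Map1lc3a, an LC3 protein of the autophagosome, averaged 31.5 ± 3.46 FPKM at 0 h, 64.3 ± 5.77 at 1 h and 70.3 ± 4.02 at 6 h, with log2 changes against 0 h of 1.01 at 1 h (limma adjusted p = 0.000102) and 1.14 at 6 h (limma adjusted p = 6.91e-06). Atg4b, an LC3 protease, and Wipi1, a phosphoinositide effector, had log2 changes of 0.61 and −0.65 (limma adjusted p = 0.000730 and 0.00321). Of 12 genes of the cystatin superfamily, which holds cathepsin inhibitors, 6 were tested, with 3 higher and 2 lower (median 0.27). Cstb, an intracellular inhibitor of cysteine cathepsins, averaged 73.3 ± 4.85 FPKM at 6 h and 41.4 ± 6.28 at 0 h (log2 change 0.82, limma adjusted p = 0.000188). Fetub and Ahsg, fetuins that share the cystatin fold, had log2 changes of 1.55 and 1.53 (limma adjusted p = 7.93e-05 and 1.21e-05).

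**Figure D5:**
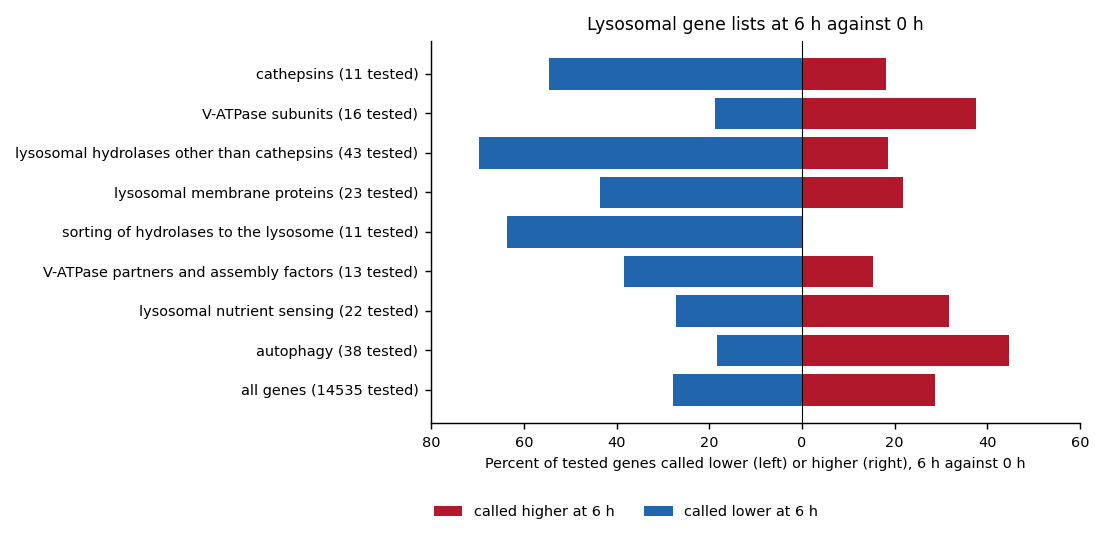
Percent of tested genes called higher (right) or lower (left) at 6 h against 0 h in each lysosomal list and over all 14535 genes tested. The hydrolase list, which holds a few genes that are not hydrolases, and the cathepsins lie mostly to the left. In them 30 of 43 and 6 of 11 were lower, while all genes divide into 28.8% higher and 27.9% lower. Lists were written with earlier results of these data known.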

How the data were processed

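RNA-seq of granulosa cells was analysed in 9 libraries, 3 each at 0, 1 and 6 h after hCG. The authors deposited FPKM per row, with gene identifier, symbol and type and no transcript name. Per the submitters' processing notes, HISAT2 2.0.5 and the build mm10 were used. Not given in the sources used here are the program behind the FPKM values, its annotation and filters, and the handling of strand, so overlapping genes could share reads. Each library has 54759 rows. Values reach below 0.001 FPKM, so whole reads were not recovered from them. Depth is therefore unknown and intervals for counting error are left out.

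Rows were summed per gene identifier. The test covered 14535 genes that reached 1 FPKM in 3 or more libraries. It used limma 3.58.1 (R 4.3.3; trended prior) on log2(FPKM + 1), with 3 group means fitted to all 9 libraries, 6 residual degrees of freedom and no covariate. Calls used a two-sided Benjamini-Hochberg adjusted p below 0.05 over all genes. The test was checked on simulated data. Gene coordinates come from GENCODE M21 and promoters from RefSeq. Members and lists were chosen with earlier results of these data known. Values per library are given for the 3 called members with the largest absolute log2 change in each comparison, the most abundant member of each role group and the 6 regulators. For each list of genes that act with the members, the log2 change at 6 h against 0 h is given for up to 3 called genes. Lyz2, Gzmb and Ly6g of the cell type marker lists were named outside this rule. A result that this rule names, a rise and the largest change of the hydrolase list, is not reported here. Alternatives were a pseudocount of 0.1, no filter, 2 scalings, a replicate block, fits of the 2 times only, the most abundant row of each gene, and each library left out.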

Additional observations from a re-analysis of the deposited data

How the results depend on the processing

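No called member change turned its sign in any of the 3 comparisons among the 16 alternatives. Among changes that were not called, 17 at 1 h against 0 h, 6 at 6 h against 0 h and 6 at 6 h against 1 h took the opposite sign in 1 or more alternatives. With FPKM scaled to the mean sum, these log2 changes became −0.085 for Atp6v0b, −0.12 for Atp6v0d1, −0.015 for Atp6v1a, −0.094 for Atp6v1g1, −0.15 for Ctsd, −0.0090 for Ctsc, −0.11 for Lamp2, −0.12 for Ctsa and −0.093 for Mitf at 1 h against 0 h, and −0.071 for Atp6v0b at 6 h against 0 h, and 0.014 for Atp6v0b at 6 h against 1 h. With quantile normalization, these log2 changes became −0.14 for Atp6v0b, −0.070 for Atp6v0d1, −0.12 for Atp6v1g1, −0.24 for Ctsd, −0.046 for Ctsb, −0.17 for Lamp2 and −0.16 for Ctsa at 1 h against 0 h, and −0.14 for Atp6v0b, −0.036 for Atp6v0e and −0.0089 for Lamp2 at 6 h against 0 h, and 0.020 for Atp6v0c at 6 h against 1 h. With the most abundant row of each gene, these log2 changes became −0.018 for Ctsa and −0.44 for Tfe3 at 1 h against 0 h, and −0.062 for Atp6v0b at 6 h against 0 h, and −0.064 for Atp6v1h at 6 h against 1 h. With single libraries left out they ranged, at 1 h against 0 h, from −0.056 to 0.030 for Atp6v0a2, −0.051 to 0.10 for Atp6v0d1, −0.059 to 0.019 for Atp6v1d, −0.056 to 0.045 for Ctsd, −0.0054 to 0.32 for Ctsc, −0.11 to 0.080 for Ctsf, −0.27 to 0.0070 for Ctsh, −0.060 to 0.00051 for Ctso, −0.058 to 0.037 for Lamp1 and −0.16 to 0.15 for Mitf. The ranges at 6 h against 0 h were −0.00098 to 0.053 for Atp6v0b, −0.60 to 0.10 for Ctss, −0.28 to 0.032 for Mitf and −0.0082 to 0.17 for Tfeb. Those at 6 h against 1 h were −0.044 to 0.092 for Atp6v1f, −0.026 to 0.11 for Atp6v1h, −0.32 to 0.019 for Ctsk and −0.20 to 0.029 for Mitf. Of these, Atp6v0b at 6 h against 0 h was called with the opposite sign, under quantile normalization (adjusted p = 0.0461). At 6 h against 0 h, 11 of 20 called members (Atp6v0a2, Atp6v0e2, Atp6v1a, Atp6v1c1, Atp6v1e1, Atp6v1g1, Atp6v1g2, Ctsa, Ctsf, Ctsh and Ctso) kept their call in all 16, as did 12 of 19 at 6 h against 1 h and 0 of 5 at 1 h against 0 h. At 1 h against 0 h, FPKM scaled to the mean sum called 3636 genes, 2634 of them lower, and 1 member higher and 5 lower. Quantile normalization called 2 members higher and 4 lower, and the fit of the 2 times only called 3 members, all 3 higher. The cause was not tested. With single libraries left out, 1221 to 2857 genes were called at 1 h against 0 h (924 to 1629 higher and 297 to 1228 lower), and 1 to 7 members, all higher. At 6 h against 0 h, 15 to 23 members were called (7 to 10 higher and 7 to 13 lower), and at 6 h against 1 h 15 to 19. Same-numbered libraries had correlations of −0.078 to 0.147 in their deviations from the group means, and different-numbered libraries −0.151 to 0.086. The labels name no pairs, so the replicate numbers were not read as pairs. A weak likeness of same-numbered libraries was not tested. With the replicate block 4, 22 and 17 members and 1991, 8089 and 7632 genes were called at 1 h against 0 h, 6 h against 0 h and 6 h against 1 h. The block ended the calls of Atp6v0e at 1 h against 0 h (adjusted p = 0.0575) and of Atp6v1d and Ctsc at 6 h against 1 h (0.0727 and 0.0586), and added Atp6v0c and Ctsb at 6 h against 0 h (0.0419 and 0.0291). Depth is unknown, so low members cannot be given a detection limit.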

Other observations

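Of 11 relatives of the members that fall outside the naming rule, 10 reached at most 0.356 FPKM. The other, Atp6ap1l, had 2.94, 2.22 and 2.51 FPKM at 0 h, 4.52, 3.39 and 3.93 at 1 h, and 2.50, 2.79 and 2.33 at 6 h. Cts6, Cts7, Cts8, Ctsll3 and Lamp3 were listed at 0 in all 9 libraries. Cts3 reached 0.0946 FPKM and Lamp5 0.0826 FPKM, each in 1 library. Mcoln2 and Mcoln3, the relatives of Mcoln1, reached at most 0.0754 and 0.0268 FPKM. Tfec, the fourth gene of the Tfeb, Tfe3 and Mitf family, was listed at 0 in 4 libraries and reached 0.356 FPKM in replicate 3 at 1 h.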
